A study of Sus scrofa with 8 samples.

Results

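The slow fibre contractile genes encode the thin and thick filament proteins, and the calcium pump, of slow-twitch skeletal muscle fibres. The members were TNNI1, MYL3, MYL2, MYH7, TNNT1, TNNC1, ATP2A2 and MYBPC1, chosen by gene symbol, and 7 of the 8 had a gene ID among the 22676 of the expression table. ATP2A2 matched no gene ID by the symbols used and is not analysed here. The samples were adipose tissue of males at 180 days of age, 2 pigs of the Jinhua breed, which the labels call fatty, and 2 of the Landrace breed, which they call leaner. No treatment or engineered allele is named in the labels for either breed. Each animal gave an input library, which holds the mRNA as it was, and an immunoprecipitation (IP) library of RNA fragments pulled down with an antibody against N6-methyladenosine (m6A), a methyl mark on adenosines within mRNA. The series title also names muscle, which is not analysed here, so every value below is from adipose tissue.

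Muscle fibres shorten when myosin heavy chains of the thick filament pull on actin of the thin filament, and calcium binding to troponin on the thin filament switches this on. Slow, oxidative fibres and fast, glycolytic fibres build the same machine from different paralogous genes, so that most slow members have a fast partner. Adipocytes build no sarcomeres, and the adipocyte list was high in all 4 input libraries, with summed levels of 7191 and 12632 FPKM in the Jinhua animals and 25069 and 12587 FPKM in the Landrace animals. FPKM, the scale of all levels below, counts fragments per kilobase of a gene, relative to all fragments mapped in the library. PLIN1, which coats the lipid droplet, was between 1764 and 5317 FPKM over the 4 libraries, whereas LPL, FABP4 and ADIPOQ had no ID under these symbols.

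All 7 slow fibre genes had their highest level in the input library of Landrace replicate 2, where they stood 10.17 to 31.1 times above the next highest one, and none of them passed the test between the breeds. Their summed level was 25.5 and 28.3 FPKM in the Jinhua animals, against 19.1 FPKM in Landrace replicate 1 and 581.5 FPKM in Landrace replicate 2. A level of at least 4 times the next library in Landrace replicate 2 was found for 7 of 7 slow fibre genes, beside 1.09% of the 13693 gene IDs tested. This count partly restates how genes came in: MYH7 and MYL2 were found only through a peak in that library, and MYBPC1 passed the filter on low values, a mean of at least 1 FPKM, only through its level there. The 4 genes free of both, TNNI1, MYL3, TNNT1 and TNNC1, were all at least 4 times higher there, beside 0.401% of the 13481 gene IDs with a mean of at least 1 FPKM in the other 3 libraries. The members were chosen with earlier results of these data known, so these 4 genes are not free of that choice. In whole tissue, more cells of a type and more RNA per cell cannot be told apart.

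The troponin genes code for the calcium switch of the thin filament. TNNC1, the calcium-binding subunit of slow and cardiac muscle, had 8.12 and 7.15 FPKM in the Jinhua animals, against 3.85 and 138.5 FPKM in the Landrace animals. Landrace replicate 2 stood high, Landrace replicate 1 lay below both Jinhua animals, and the breeds overlapped. TNNI1, the slow inhibitory subunit, had 1.25 and 2.26 FPKM in the Jinhua animals, against 2.42 and 59.3 FPKM in the Landrace animals. Here the breeds did not overlap, but Landrace replicate 1 lay only just above the higher Jinhua animal. TNNT1, the slow subunit that holds troponin to tropomyosin, had 7.48 and 8.60 FPKM in the Jinhua animals, against 7.31 and 87.5 FPKM in the Landrace animals. TNNT1 was the steadiest member outside Landrace replicate 2, with a ratio of 1.18 between the highest and lowest of the other 3 libraries, against 1.94 to 4.25 for the other 6 genes.

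The thick filament genes followed the same order of libraries at the top but not below it. MYH7, the slow myosin heavy chain, had 5.53 and 2.60 FPKM in the Jinhua animals, against 2.58 and 84.6 FPKM in the Landrace animals. Jinhua replicate 2 and Landrace replicate 1 were almost level. MYL2, the slow regulatory light chain, had 2.19 and 6.05 FPKM in the Jinhua animals, against 1.42 and 161.7 FPKM in the Landrace animals, the widest range of any member (113.6 times between highest and lowest). MYL3, the slow essential light chain, had 0.562 and 1.24 FPKM in the Jinhua animals, against 1.30 and 40.5 FPKM in the Landrace animals. Like TNNI1, MYL3 had both Landrace animals above both Jinhua animals, by little in Landrace replicate 1. MYBPC1, the slow myosin-binding protein that bridges thick and thin filaments, was the lowest member in every library, with 0.415 and 0.357 FPKM in the Jinhua animals, against 0.190 and 9.51 FPKM in the Landrace animals.

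**Figure D1:**
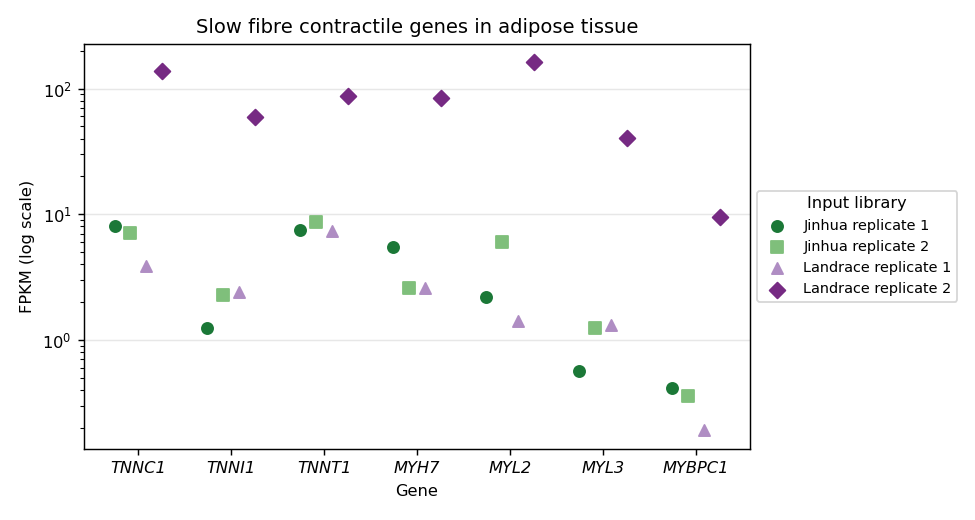
Level of each slow fibre gene (FPKM, log axis) in the 4 input libraries, 1 point per animal. For all 7 genes the point of Landrace replicate 2 lies above the other 3, which stay between 0.190 and 8.60 FPKM.

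The order of the 7 genes within a library, which FPKM allows because it is per length, also set Landrace replicate 2 apart. MYL2 was first there, with 27.8% of the summed level, whereas it held 8.57% in Jinhua replicate 1, 21.4% in Jinhua replicate 2 and 7.47% in Landrace replicate 1. TNNT1 held 29.3% and 30.4% in the Jinhua animals, against 38.3% and 15.0% in the Landrace animals, and in Landrace replicate 2 it came after MYL2 and TNNC1. TNNT1 and TNNC1 were the first and the second gene, in either order, in the other 3 libraries. Landrace replicate 2 is 1 library set against the others, so these differences were not tested.

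Between the breeds, limma (two-sided, adjusted over all 13693 gene IDs) called none of the 7 genes, and none had an unadjusted p under 0.05. Over all gene IDs tested, 2 were called higher in Jinhua (0.0146%) and 3 lower (0.0219%), which are 0.0365% together. The log2 differences, Jinhua minus Landrace on log2(FPKM + 1), lay between -2.41 for TNNI1 and -1.35 for MYBPC1, with a median of -1.85 beside 0.15 for all gene IDs tested. In limma the adjusted p lay between 0.537 (TNNI1) and 0.675 (TNNC1). All 7 differences were below 0, as were 42% of those tested, but 2 of the 7 genes had breeds that did not overlap, both lower in Jinhua, beside 18.1% of those tested with Jinhua lower and 30.2% with Jinhua higher. For each gene the standard deviation between the Landrace animals was larger than the difference of the breed means. With 2 animals this follows from the 1 high library and adds nothing to it. For MYL3, for example, it was 27.7 FPKM around a mean of 20.9 FPKM, beside a Jinhua mean of 0.899 ± 0.476 FPKM (SD, n = 2). Without Landrace replicate 2 the median log2 difference of all gene IDs tested was 0.23, with 5535 of 13693 below 0. The median of the 7 slow fibre genes was then 0.22, close to that of all gene IDs. Their direction turned for 5 of 7, to log2 differences between 0.12 (TNNT1) and 0.97 (MYL2). It stayed below 0 at -0.34 for TNNI1 and -0.30 for MYL3. None was called in limma then either, with adjusted p between 0.265 and 0.785. A test of 2 animals against 2 by exact permutation cannot give a two-sided p under 0.3333.

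Genes of other muscle fibres had the same library at the top. On the fast fibre list, 10 of 10 measured genes were highest in Landrace replicate 2, at 9.27 to 36.8 times the next library. This count partly restates how genes came in. MYH2 and PVALB passed the filter only through that library, and MYH1 and MYH2 were named only through a peak there. MYLPF was also named by the peak lists alone. The 6 genes free of both were all at least 4 times higher there, on a list also chosen with earlier results of these data known. The summed level of the list was 41.3 and 64.1 FPKM in the Jinhua animals, against 26.1 and 1425 FPKM in the Landrace animals. PVALB, the calcium buffer of fast fibres, was the only gene of that list at 0, and only in Landrace replicate 1. Of 14 tested genes of the sarcomere of all fibres, 13 were highest in Landrace replicate 2 and 10 by at least 4 times. Of those 10, LDB3, LMOD2, MYOT, NEB, RYR1 and TRDN passed the filter only through that library. LDB3 and RYR1 were also named by the peak lists alone. Among the 8 genes with a mean of at least 1 FPKM in the other 3 libraries, 4 were at least 4 times higher there. The list summed to 400.7 and 220.9 FPKM in the Jinhua animals, against 269.0 and 2168 FPKM in the Landrace animals. ACTA1, the actin of skeletal muscle, had 38.6 and 72.2 FPKM in the Jinhua animals, against 50.6 and 1511 FPKM in the Landrace animals. TPM2 and TPM1, the next highest genes of the list, stood out less in Landrace replicate 2. They had 230.8 and 189.6 FPKM there, 1.30 and 1.20 times the next library. SMYD1, a methyltransferase of muscle, was listed at 0 in the other 3 libraries. The part of fast or other fibres in the levels of the slow fibre genes was not tested.

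Lists of other cells were mixed. None of 7 tested smooth muscle genes and none of 8 adipocyte genes was highest in Landrace replicate 2. Both tested heart genes were highest there, and both passed the filter only through that library. MYH6, a close paralog of MYH7 (reads of the 2 genes may be mixed, which makes both levels uncertain), had 0.406 and 0.700 FPKM in the Jinhua animals, against 0.871 and 4.98 FPKM in the Landrace animals. ACTC1, the cardiac actin, had 0.705 and 0.332 FPKM in the Jinhua animals, against 0.274 and 2.77 FPKM in the Landrace animals. NPPB, a natriuretic peptide gene of the heart, was listed at 0 throughout, and TNNT2, the cardiac troponin T, reached 0.517 FPKM, also in Landrace replicate 2. MYL4, also on the heart list, was instead highest in Jinhua replicate 1. It had 0.545 and 0 FPKM in the Jinhua animals, against 0 and 0.444 FPKM in the Landrace animals. Of the myogenic factors, MYF6 was at 4.82 FPKM in Landrace replicate 2 and at or under 0.110 FPKM in the other 3 libraries, MYOD1 reached 0.249 FPKM and MYF5 was listed at 0 throughout. Transcripts of liver, looked at after the values were seen, set 2 libraries apart. ALB, serum albumin, had 10272 and 1.70 FPKM in the Jinhua animals, against 0 and 4384 FPKM in the Landrace animals. APOC3 and AHSG, secreted by the liver, were at 8185 and 1260 FPKM in Jinhua replicate 1, at 1683 and 537.5 FPKM in Landrace replicate 2, and at or under 1.23 FPKM in the other 2. Their part in the results was not tested.

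Other genes of slow or oxidative fibres went 2 ways. SLN, a small regulator of the sarcoplasmic calcium pump, had 3.02 and 3.26 FPKM in the Jinhua animals, against 2.58 and 112.3 FPKM in the Landrace animals. ANKRD1 and CSRP3, stress-sensing proteins of striated muscle, were at 11.2 and 6.56 FPKM in Landrace replicate 2 and at or under 0.334 FPKM elsewhere. CA3, a carbonic anhydrase of slow muscle that adipocytes also make, had 2936 and 764.1 FPKM in the Jinhua animals, against 2317 and 1696 FPKM in the Landrace animals, and FHL1 lay between 940.2 and 1507 FPKM over the 4 libraries. PLN had 27.5 and 6.19 FPKM in the Jinhua animals, against 13.8 and 6.39 FPKM in the Landrace animals. Of the 8 measured genes of that list 4 were highest in Landrace replicate 2, and 3 were at least 4 times higher there. The test with limma called none of the 8 in either direction. Of those 3, ANKRD1 and CSRP3 passed the filter on low values only through that library. Among the 6 genes with a mean of at least 1 FPKM in the other 3 libraries, 1 was at least 4 times higher there. Among 15 tested regulators of the slow fibre programme limma again called none, and none was 4 times higher in Landrace replicate 2. Of the 18 regulators with an ID, ESRRG and CAMK2A, left out by the filter, did stand above the next library there, at 2.31 and 1.97 FPKM, by 39.0 and 5.76 times. PPARD, a nuclear receptor of fatty acid oxidation, had 37.4 and 126.5 FPKM in the Jinhua animals, against 84.0 and 86.3 FPKM in the Landrace animals. SOX6 is a repressor of slow fibre genes in mice. It had 9.33 and 8.59 FPKM in the Jinhua animals, against 5.15 and 2.72 FPKM in the Landrace animals. Its adjusted p in limma was 0.496. Among the 15 tested regulators, 4, SOX6 included, were higher in Jinhua without overlap of the breeds, and 5 were lower. The shares of all gene IDs tested were 30.2% higher and 18.1% lower.

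**Figure D2:**
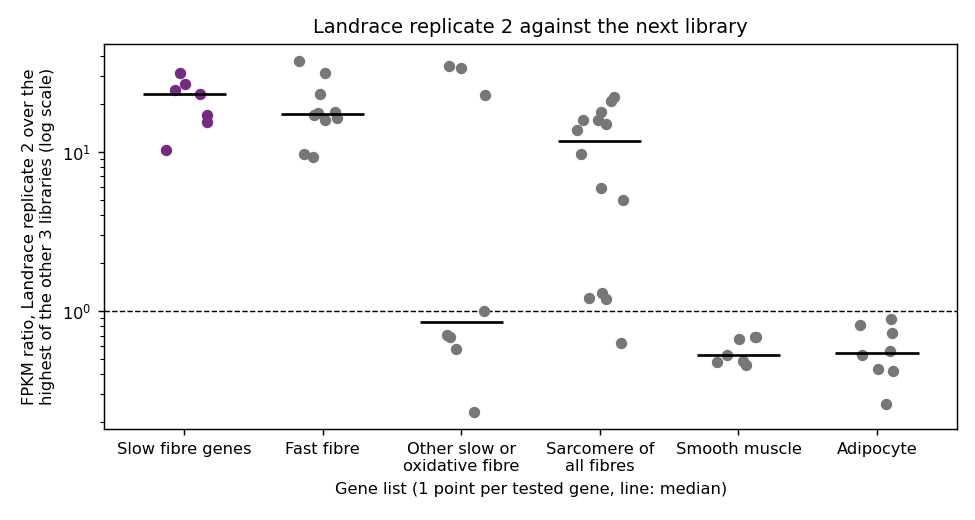
Ratio of the FPKM in Landrace replicate 2 to the highest of the other 3 input libraries (log axis), 1 point per tested gene, with the median of each list as a line and equality as a dashed line. Slow fibre genes lie between 10.17 and 31.1 and fast fibre genes between 9.27 and 36.8, while smooth muscle and adipocyte genes lie below 1.

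Pairs of slow and fast paralogs compare slow with fast levels within a library. Where levels are low the share is less certain, and adding 1 FPKM to both partners changed it (closing section). Of 8 pairs, 5 had a slow and a fast gene among the gene IDs, and the other pairs lacked TNNI2, TNNT3 or ATP2A2. The slow share of TNNC1 and TNNC2, slow FPKM over slow plus fast FPKM, was 30.8% and 20.2% in the Jinhua animals, against 26.7% and 21.9% in the Landrace animals. For MYL2 and its partner MYLPF it was 16.97% and 26.9% in the Jinhua animals, against 19.6% and 24.1% in the Landrace animals. In both pairs the fast paralog was the higher one in every library, and Landrace replicate 2 lay inside the range of the others although its levels were far above theirs.

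The slow share of myosin heavy chain, MYH7 against MYH1 plus MYH2, was 72.5% and 46.1% in the Jinhua animals, against 52.0% and 66.3% in the Landrace animals. It was the highest share of the 5 pairs in every library but Landrace replicate 1, and MYH4 is missing from its fast side. For MYBPC1 against MYBPC2 the share was 24.1% and 12.8% in the Jinhua animals, against 15.7% and 29.8% in the Landrace animals. MYL3 against MYL1 had 10.4% and 18.4% in the Jinhua animals, against 59.4% and 16.7% in the Landrace animals. That high value in Landrace replicate 1 set 1.30 FPKM of MYL3 against 0.889 FPKM of MYL1, both low levels. By an exact permutation test (two-sided, n = 2 each) the p was 1 for 3 pairs and 0.667 for MYL3 and MYBPC1, before any adjustment over the 5 pairs.

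**Figure D3:**
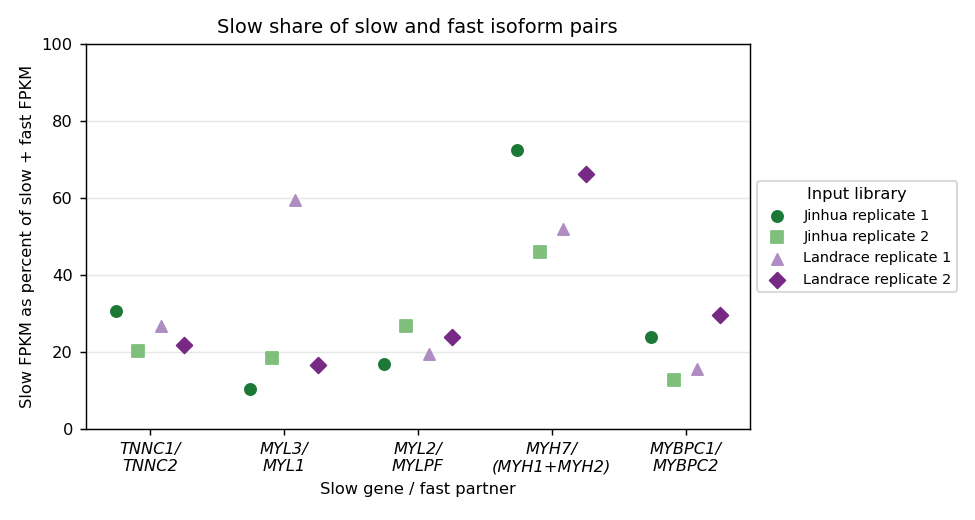
Slow FPKM as a percent of slow plus fast FPKM for 5 pairs of paralogs, 1 point per animal. Landrace replicate 2 lies among the other animals for 4 pairs and is the highest, at 29.8%, for MYBPC1 against MYBPC2.

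Set against ACTA1, which all skeletal fibres make, the slow fibre genes differed among themselves. TNNT1 stood at 19.4% and 11.9% of the ACTA1 level in the Jinhua animals, against 14.4% and 5.79% in the Landrace animals, so that Landrace replicate 2 was the lowest. MYL2 stood at 5.67% and 8.38% in the Jinhua animals, against 2.81% and 10.7% in the Landrace animals, with Landrace replicate 2 the highest. TNNI1 varied least by this measure, between 3.13% and 4.78% over the 4 libraries. ACTA1 was taken as the yardstick after its values were seen.

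The genes most like the slow fibre genes were sought by the root-mean-square difference of centred log2(FPKM + 1) profiles over the 4 input libraries, where 0 is an equal profile. The mean profile of the 7 members was -1.04 and -0.85 in the Jinhua animals, against -1.22 and 3.11 in the Landrace animals. Closest were TCAP, the titin cap of the Z-disc (0.169), CASQ1, the fast calsequestrin (0.182), ENO3, the muscle enolase (0.204), MYH1, a fast myosin heavy chain (0.212), and the small nucleolar RNA SNORA46 (0.238). ENO3 had 9.58 and 13.7 FPKM in the Jinhua animals, against 7.61 and 245.0 FPKM in the Landrace animals. The members themselves lay between 0.264 (TNNC1) and 0.705 (MYL2) from their own mean. The 5 genes were nearer to it than any member, but they were picked as the nearest of all tested gene IDs with a symbol. The members were not picked by this distance, so the 2 sets cannot be compared by it. SNORA46 was listed at 23.5 FPKM in Landrace replicate 2 and at 0 in the others, which shows how few libraries this measure rests on.

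The IP library of Landrace replicate 2 was also the only one with m6A peaks on slow fibre genes. It held 16 peaks on 7 of 7 genes, and the lists of both Jinhua animals and of Landrace replicate 1 held 0. At least 1 peak was listed for 38.7% and 32.4% of all gene IDs in the Jinhua animals, against 21.2% and 35.9% in the Landrace animals. The peak count of the list as a whole did not set this library apart, with 20688 and 16116 peaks in the Jinhua animals, against 8909 and 19039 in the Landrace animals. The symbols of MYH7 and MYL2 came from the peak lists alone, so these genes could be found only because they had a peak. The other 5 were named independently in the name table, and 5 of 5 had a peak in Landrace replicate 2.

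MYH7 carried 9 of the 16 peaks, on transcript ENSSSCT00000002271. They began at base 2536 of the transcript and ended at base 5803, covered 1682 bases, which is 51.5% of that stretch, and left no gap above 582 bases. Genes with 9 or more peaks made up 1.09% of the genes with a peak in that list. MYBPC1 had 2 peaks, at bases 1 to 100 and 2682 to 2845 of ENSSSCT00000000945.

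The other 5 genes had 1 peak each. On the troponin transcripts the peaks lay at bases 186 to 347 for TNNC1, 1 to 151 for TNNI1 and 11 to 157 for TNNT1. On the light chain transcripts they lay at bases 351 to 500 for MYL2 and 430 to 588 for MYL3. The widths of the 16 peaks ran from 100 to 273 bases with a median of 163 bases, beside a median of 156 bases for the whole list. All 16 were assigned to coding sequence, beside 73.6% of the list (95% Wilson interval 73.0 to 74.2, which covers counting error only). Of the 16, 9 lay on the 1 transcript of MYH7, so they are not separate draws. The 33 peaks of the fast fibre genes in that library were all assigned to coding sequence too. TNNI1 and MYBPC1 each had a peak that began at base 1 of the transcript and still counted as coding sequence, and the rule of assignment is not known.

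**Figure D4:**
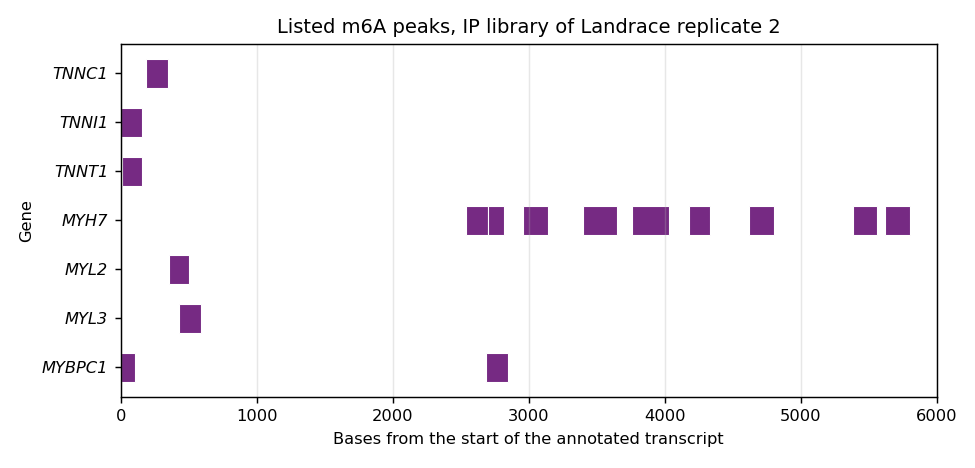
Position of the 16 listed m6A peaks on the transcripts of the 7 slow fibre genes in the IP library of Landrace replicate 2, in bases from the transcript start, 1 box per peak. MYH7 has 9 peaks between bases 2536 and 5803, MYBPC1 has 2 and the others have 1 each; the ends of the transcripts are not drawn.

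Fewer gene IDs had a listed peak at the lower input levels. At the level each slow fibre gene had in Landrace replicate 2, between 68.2% (MYBPC1) and 83.03% (TNNC1) of the gene IDs within 2 times of it had a peak. Over the 21 combinations of a slow fibre gene with 1 of the other 3 libraries, 0 had a peak, and the share among gene IDs of like level averaged 25.1% and ran from 0% to 67.5%. The highest of these 21 shares were in Jinhua animals. For TNNC1 it was 67.5% in Jinhua replicate 1 and 57.3% in Jinhua replicate 2, and for TNNT1 it was 66.0% in Jinhua replicate 1 and 62.3% in Jinhua replicate 2. MYH7 had 60.2% in Jinhua replicate 1 and MYL2 had 52.7% in Jinhua replicate 2. Transcript length was not taken into account in these shares, and the lists give no read number or score, so an absent peak is not shown to be an absent mark.

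**Figure D5:**
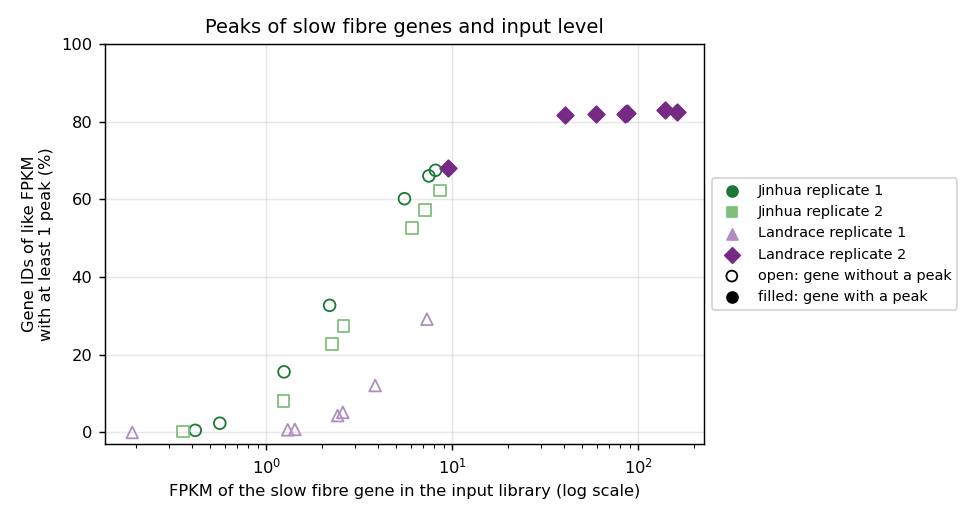
For each slow fibre gene and animal, the input FPKM (log axis) against the percent of gene IDs within 2 times of that FPKM that have at least 1 listed peak in the same animal. Filled points, all from Landrace replicate 2, mark genes with a peak, and open points, between 0% and 67.5% on the vertical axis, mark genes without.

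The fast fibre genes gave a like picture with some differences. In Landrace replicate 2, 9 of 10 had a peak, with 33 peaks in all, among them 8 on MYH2, 7 on MYH1 and 6 on ATP2A1, the fast partner of ATP2A2. In Jinhua replicate 2, MYLPF and TNNC2 had 1 peak each, at 16.5 and 28.2 FPKM, levels above that of any slow fibre gene there. TNNC2 was the gene without a peak in Landrace replicate 2, where it had 493.8 FPKM. MYLPF, MYH1 and MYH2 were, like MYH7, named by the peak lists alone.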

How the data were processed

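Input and IP libraries of adipose tissue from 2 Jinhua and 2 Landrace pigs were used (8 libraries). The mRNA was purified on beads, sonicated for the IP and made into libraries with a stranded kit, per the labels' protocols. TopHat2 version 2.0.14, Sscrofa10.2 and susScr3 stand in the submitters' processing notes with no role; the sources used here do not give the quantifier, annotation release, use of strand, peak caller or threshold.

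Expression values, as deposited, were read as FPKM made by the authors; the unit is not named, and this rests on the gene column's Cufflinks-style name per the file headers and on the values. Depth is unknown: 430 gene IDs with low values showed no step of 1 read (18 in the fullest of 160 bins of a ratio). The deposited peak lists, 1 per IP library, give transcript positions counted from 1 and no score. A further 4 expression columns and 4 peak lists match no sample described here and were not used.

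Symbols came from the peak lists (7619 gene IDs), else from an Ensembl name table (5367). The members and lists were chosen with earlier results of these data known. Named besides them are the 5 symbols of most like profile and up to 4 of the highest genes of each list; PVALB, SMYD1, MYOD1, MYF5, MYF6, NPPB, TNNT2, ANKRD1, CSRP3, SOX6, ESRRG, CAMK2A, ALB, APOC3, AHSG and some fast genes were added after their values were seen. Breeds were compared with limma 3.58.1 in R 4.3.3 (trend, two-sided) on log2(FPKM + 1) for gene IDs with a mean of at least 1 FPKM, Benjamini-Hochberg adjusted p under 0.05, tested on simulated data. No block was used, because the labels do not say that a replicate number marks a shared batch. Deviations from the breed mean in animals of the same replicate number had a correlation across genes of -0.384. With 2 animals per breed, a value below 0 means that animals of unlike replicate number tended to deviate together. Alternatives are in the closing section. The labels count 2 males per breed, so replicates were taken as separate animals.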

Additional observations from a re-analysis of the deposited data

How the results depend on the processing

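limma called 0 of the slow fibre genes under all 12 alternatives, the replicate block and a crossed block (added after the data were seen) included, where MYBPC1 was not tested at a mean of at least 5 FPKM. Over all gene IDs it called 5, against 7 with a pseudocount of 0.1, 6 at a mean of at least 5 FPKM and 5 with quantile normalization. It called 0 with no filter on low values, median-ratio scaling, no trend, the replicate block (695 gene IDs at an unadjusted p under 0.05), the crossed replicate block (1603), and with any 1 animal left out (0 to 0; 316 to 2704). Leaving out 1 animal assumes that the lone animal of a breed varies like the other breed. The log2 differences (Jinhua minus Landrace) then ran from -2.92 to 0.22 for MYBPC1, -4.14 to 0.44 for MYH7, -5.10 to 0.97 for MYL2, -4.02 to 0.83 for TNNC1, -3.29 to 0.12 for TNNT1, -4.47 to -0.30 for MYL3 and -4.48 to -0.34 for TNNI1. Each positive end was the value without Landrace replicate 2.

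Breed differences in slow share, in percentage points, ran with 1 animal left out from -4.09 to 6.46 for TNNC1, -13.0 to 13.4 for MYH7, -4.88 to 5.01 for MYL2, -11.3 to 2.72 for MYBPC1 and -45.0 to -2.30 for MYL3. Their median was 0.0641 with all animals and ran from -9.91 to 2.27. With 1 FPKM added to both partners it was -0.823, MYL2 had -0.0969 and MYH7 -1.24, MYL3 had -12.6 (-23.7 without it) and MYBPC1, the median pair, -0.823 (-4.29). The cause was not tested. The median log2 ratio of Landrace replicate 2 to the next library was 4.52. It was 4.49 with median-ratio scaling and 4.29 when scaled to the sum without the most abundant gene ID. That gene ID held 40.1% and 51.0% of the summed FPKM in the Jinhua animals, against 63.2% and 73.8% in the Landrace animals. The summed FPKM of all gene IDs ran from 1.54e+06 in Jinhua replicate 1 to 4.14e+06 in Landrace replicate 2. Counting peaks within 50 bases of each other as 1 left 15 of 16 peaks. The overlap minimum could not change the count of shared peaks, 0 at both settings, because 1 library alone held peaks on these genes. The median difference of all gene IDs was 0.15, which median-ratio scaling removed.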
